A study of Mus musculus with 8 samples.

Results

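8 Wnt ligand genes were followed through mouse forelimb development in single-cell RNA-sequencing data: Wnt2, Wnt4, Wnt5a, Wnt5b, Wnt6, Wnt9a, Wnt11 and Wnt16. They were taken by gene symbol, and all 8 were among the 28001 features of the deposited tables, each under 1 identifier. Their unique molecular identifiers (UMIs, 1 per captured transcript) were summed over 53085 cells of 8 libraries, from 57469 deposited barcodes, after keeping cells with at least 3000 UMIs and at most 10% mitochondrial UMIs. Of these libraries, 6 held sorted tdTomato+ mesenchymal progenitors, 1 library each at E11.5, E12.5, E13.5 and E14.5 and 2 at E16.5. The E16.5 proximal library covered the distal stylopod, the elbow and the proximal zeugopod, and the E16.5 distal library the distal zeugopod and the autopod. Per the study's methods, forelimbs were divided into segments at E16.5 only. A step from an earlier stage to either E16.5 library therefore also changes the limb region. The other 2 libraries, whole 1 and whole 2, were replicates of whole E11.5 limb holding tdTomato+ and tdTomato- cells together.

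Embryos were C57BL/6J and carried Hic1CreERT2 on both alleles with the Rosa26LSLtdTomato reporter, also on both alleles. Dams received 7.5 mg tamoxifen at embryonic day 10, so tdTomato marked cells in which Hic1 was active near that day, together with their descendants. A tdTomato+ cell therefore need not have transcribed Hic1 when it was collected. Limbs of several embryos were pooled for each sorted library, and the sort gated out cells bearing surface markers of blood or endothelium. With 1 library per stage, no stage was replicated, and the intervals given below cover counting error only. Libraries up to E13.5 used an earlier reagent kit than the later ones. Kit and stage can therefore not be told apart in any comparison of a sorted library up to E13.5 with a later one.

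Wnt ligands are secreted, lipid-modified glycoproteins that bind Frizzled receptors. With Lrp5 or Lrp6 as co-receptor they stabilise beta-catenin and induce target genes such as Axin2 and Lef1, whereas Wnt5a and Wnt11 are best known for signalling without beta-catenin, in part through Ror2 and Ryk. In the limb, Wnt5a is known for distal outgrowth, Wnt6 is a ligand of the surface ectoderm, and Wnt4, Wnt9a and Wnt16 are known from forming joints.

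On the GRCm38 build with the GENCODE vM21 annotation, all 8 genes were protein coding. Wnt6 (chr1:74771892-74785322, plus strand) lay 6193 bp from Wnt10a, and Wnt9a (chr11:59306928-59333552, plus strand) lay 16175 bp from Wnt3a. Wnt2 (chr6:17988940-18030585, minus strand), Wnt16 (chr6:22288227-22298522, plus strand) and Wnt5b (chr6:119432531-119544347, minus strand) shared chromosome 6. Wnt4 (chr4:137277489-137299726), Wnt11 (chr7:98835112-98855195) and Wnt5a (chr14:28504750-28527448) lay on the plus strand. No member overlapped a gene on its own strand. Wnt5a, Wnt5b, Wnt6 and Wnt11 each overlapped 1 gene on the opposite strand, which was Gm2670, Fbxl14, Gm29539 and Gm8398, respectively.

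RefSeq promoter windows (GRCm38.p6, 250 bases before to 50 after the start of transcription) matched 7 of the 8 genes, all except Wnt5a. Those of 3 genes are shown because Wnt4 and Wnt6 were the pair of members with the highest Pearson correlation over clusters, and because Wnt11 was the member with both a TATA box and a TCF/LEF motif in its window. Capitals mark the motifs searched on both strands, which were the TATA box (letters TATAAA), the CCAAT box, the GC box (letters GGGCGG) and the TCF/LEF motif (letters CTTTGAT), and adjoining or overlapping matches run together.
Wnt11, chr7:98834862-98835161, plus strand: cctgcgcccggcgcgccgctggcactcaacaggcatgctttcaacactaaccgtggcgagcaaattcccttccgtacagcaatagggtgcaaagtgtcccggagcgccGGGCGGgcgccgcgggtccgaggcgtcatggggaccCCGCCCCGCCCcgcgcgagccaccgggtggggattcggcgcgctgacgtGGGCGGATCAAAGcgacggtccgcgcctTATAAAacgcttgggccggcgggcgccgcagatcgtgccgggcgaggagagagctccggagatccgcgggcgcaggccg
Wnt4, chr4:137277385-137277684, plus strand: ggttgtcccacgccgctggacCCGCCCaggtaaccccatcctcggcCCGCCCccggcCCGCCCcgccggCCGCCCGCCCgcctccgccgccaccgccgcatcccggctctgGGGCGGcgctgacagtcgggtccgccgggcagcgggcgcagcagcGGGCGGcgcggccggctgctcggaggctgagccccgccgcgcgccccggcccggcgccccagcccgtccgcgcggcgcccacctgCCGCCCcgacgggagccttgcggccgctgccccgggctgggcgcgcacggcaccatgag
Wnt6, chr1:74771642-74771941, plus strand: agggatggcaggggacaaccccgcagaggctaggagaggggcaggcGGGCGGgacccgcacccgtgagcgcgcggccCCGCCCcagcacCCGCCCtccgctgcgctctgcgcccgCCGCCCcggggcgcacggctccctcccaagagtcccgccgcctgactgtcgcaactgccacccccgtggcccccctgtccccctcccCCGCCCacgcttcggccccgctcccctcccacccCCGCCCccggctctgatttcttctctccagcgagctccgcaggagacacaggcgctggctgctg

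The Wnt11 window shown held TATAAA starting at -29 and CTTTGAT starting at -51 from the start of transcription, with 4 GC boxes. A second RefSeq window of Wnt11 (chr7:98838595-98838894) held neither motif and 1 GC box. In order, TATAAA and CTTTGAT were present in 13.6% and 3.73%, respectively, of 32851 promoter windows of the same length. The Wnt4 window held 8 GC boxes and the Wnt6 window held 6. At least 1 GC box was present in 35.7% of all windows, and the number per window was not compared. The GC content of the Wnt4 and Wnt6 windows was 84.3% and 76.7%, against a median of 52.7% over all windows. High values were not particular to this pair, with 83.3% and 5 GC boxes for Wnt9a and 71.3% for the Wnt11 window shown. Wnt2 and Wnt16 were lower, at 65.7% and 58%, and the Wnt5b windows ran from 53% to 78%. A match describes the letters of the window only.

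Cells were clustered within each library without the genes of the Wnt pathway, which gave 147 clusters. Of these, 77 carried the name of a class from its markers and the others were left unnamed and are given by their leading genes. The share of cells left unnamed ranged from 32.9% at E16.5 distal to 73.1% at E11.5. Names were rebuilt here, not taken from the study. Non-mesenchymal clusters (epithelial-, myogenic- and endothelial-like, and 1 unnamed keratin-led cluster) were not found in the sorted libraries from E11.5 to E13.5. They held 70 epithelial-like cells at E14.5, 68 in the distal E16.5 library, and 3 clusters of 543, 325 and 69 cells among the 11109 of the proximal one. Clusters counted as mesenchymal included an unnamed one of 1322 proximal E16.5 cells with the muscle genes Myl1, Acta1 and Tnnc2 among its leading genes, which held 0.59% to 17.3% of the UMIs of each ligand in that library, and an unnamed one of 80 cells of whole 1 led by Car2 and Tspan32. The whole limb libraries held 314 and 292 myogenic-like and 38 and 21 epithelial-like cells, besides a few endothelial-like cells and, in whole 2, 8 cells that passed the endothelial rule but were led by the platelet genes Pf4 and Ppbp. Levels are given as CPM, in which each gene's share of the summed UMIs is put on the usual scale for library size, and a level of 1 gene is not set against that of another, since capture from the 3' end differs between transcripts.

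Each ligand had its own pattern over stage and cell type. Wnt2, Wnt4 and Wnt6 were higher at E16.5 than at E11.5, Wnt5b and Wnt9a were lower at E16.5 than at E12.5, and Wnt5a and Wnt11 had their highest sorted level at E14.5. Wnt5a was widespread, with its highest class in whole limb being distal mesenchyme-like. Wnt2 was concentrated in a Pi16+ Ly6a+ fibroblast-like cluster and Wnt6 (except at E16.5 distal) in keratin-expressing cells. Wnt4 was high in keratin-expressing, dermal fibroblast-like and joint-like cells, and at E14.5 also in chondrocyte-like cells. Wnt11 at E14.5 was highest in dermal fibroblast-like cells and in unnamed clusters near the same level. Wnt16 was highest in a distal mesenchyme-like cluster, followed by a keratin-led one.

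**Figure D1:**
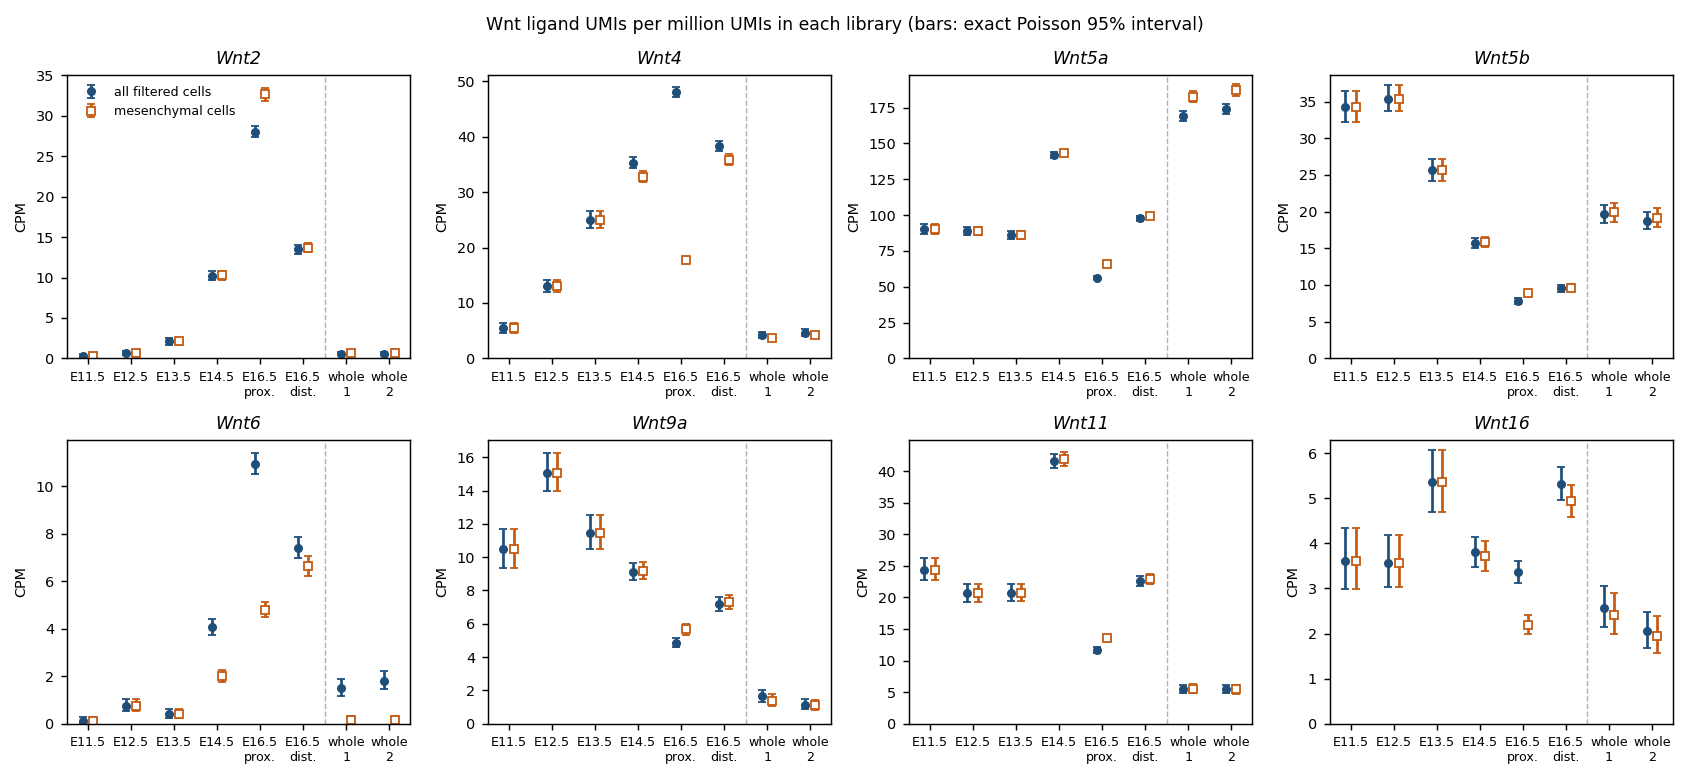
Level of each ligand in CPM (y axis, linear) in the 8 libraries (x axis), over all filtered cells (filled circles) and over mesenchymal cells alone (open squares), with exact Poisson 95% intervals as bars. The squares fall well below the circles for Wnt4, Wnt6 and Wnt16 at E16.5 proximal and for Wnt6 in the whole limb.

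Wnt5a, the ligand of distal limb outgrowth, was measured at 90.2 CPM at E11.5, 88.9 CPM at E12.5, 86.3 CPM at E13.5, 142 CPM at E14.5, 56.2 CPM at E16.5 proximal and 97.7 CPM at E16.5 distal. The whole limb libraries stood above every sorted library, at 169 and 174 CPM (172 ± 3.68, SD, n = 2). Intervals of the levels at E11.5, E12.5 and E13.5 met those of their neighbours in order, so these 3 stages were not separated. From E14.5 to E16.5 proximal, a step that also changes the limb region, the level was 2.53-fold lower (95% interval 2.47 to 2.59). It was 1.74-fold higher in the distal than in the proximal E16.5 library (1.70 to 1.78).

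Within the whole limb, Wnt5a followed the distal mesenchyme. It reached 386 CPM (369 to 404) in a cluster of whole 2 led by Tfap2b, Hoxd13 and Hoxa13, and 378 CPM (360 to 396) in a cluster of whole 1 led by Tfap2b, Evx2 and Hoxd13. In anterior mesenchyme-like cells it was 58.8 CPM in whole 1 and 55.5 CPM in whole 2, and in myogenic-like cells 22.1 and 18.0 CPM. Over mesenchymal clusters, Wnt5a went up with the sum of Hoxa13 and Hoxd13, homeobox genes of the distal limb, with Pearson's r of 0.888 and Spearman's rho of 0.890 over 14 clusters of whole 1 and r of 0.854 and rho of 0.814 over 15 clusters of whole 2. Wnt11 went the other way, with r of -0.60 and -0.66. These correlations describe clusters that share a library and are not replicates, and those of whole 1 include the Car2-led cluster.

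**Figure D2:**
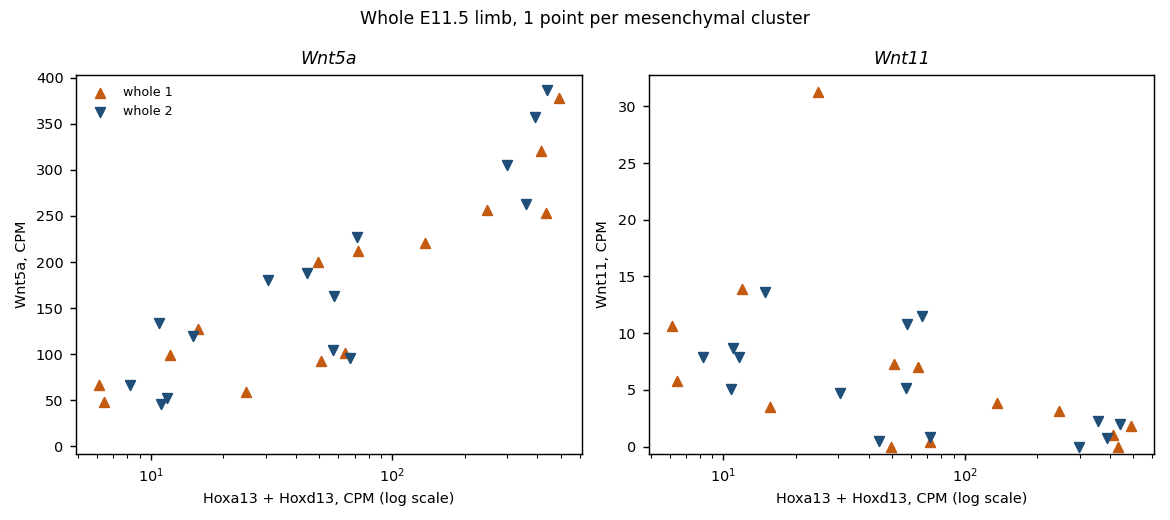
Wnt5a (left) and Wnt11 (right) in CPM against the summed CPM of Hoxa13 and Hoxd13 (log axis) in the mesenchymal clusters of whole 1 (14 clusters, upward triangles) and whole 2 (15 clusters, downward triangles). Wnt5a is high where the Hox genes are high, and the Wnt11 values above 5 CPM lie where the summed Hox level is under 100 CPM.

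At E14.5, Wnt5a was highest in a distal mesenchyme-like cluster led by Msx1 and Msx2, at 307 CPM (293 to 321), and it was 266 CPM in dermal fibroblast-like cells, 229 CPM in osteogenic and perichondrial-like cells and 207 CPM in fibroblast-like cells. Chondrocyte-like and tenocyte-like cells of that library held 53 and 54 CPM. At E16.5 proximal the leading class was osteogenic and perichondrial-like at 163 CPM, and at E16.5 distal it was distal mesenchyme-like at 174 CPM. Epithelial-like cells were low for Wnt5a in these libraries, at 15.5 CPM at E14.5 and, at E16.5, 4.0 CPM proximally and 4.5 CPM distally.

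Wnt5b, the paralogue of Wnt5a known from developing cartilage, was lower at the later stages. Its level was 34.3 CPM at E11.5, 35.4 CPM at E12.5, 25.7 CPM at E13.5, 15.7 CPM at E14.5, 7.83 CPM at E16.5 proximal and 9.52 CPM at E16.5 distal, with 19.6 and 18.8 CPM in whole limb (19.2 ± 0.60, SD, n = 2). The intervals at E11.5 and E12.5 met, and each later sorted level lay below both. E16.5 proximal stood 4.38-fold below E11.5 (4.06 to 4.72), and 3.83-fold below it over mesenchymal cells alone (3.55 to 4.14).

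Wnt5b marked no single class. The highest cluster held 1.35 to 4.36 times the median cluster of its library, against 1.28 to 3.38 for Wnt5a and up to 97.3 for Wnt2. Its highest clusters were led by Ffar4 and Gdnf at E11.5 (67.6 CPM, 54.4 to 83.0), by Cyp26a1 and Aldh1a2 at E13.5 (64 CPM, 43.5 to 90.9) and by Pax9 and Tfap2a at E12.5 (57.8 CPM, 48.7 to 68.0), and their intervals met. At E13.5, chondrocyte-like cells held 27.0 CPM and joint-like cells 33.0 CPM, close to the 25.7 CPM of the whole library. At E16.5, the classes ran from 0.9 CPM in epithelial-like to 18 CPM in osteogenic and perichondrial-like cells of the proximal library.

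Wnt11 was measured at 24.4 CPM at E11.5, 20.7 CPM at E12.5, 20.8 CPM at E13.5, 41.6 CPM at E14.5, 11.7 CPM at E16.5 proximal and 22.6 CPM at E16.5 distal. In whole limb it was 5.44 and 5.48 CPM (5.46 ± 0.029, SD, n = 2), below every sorted library. The E14.5 level stood apart from the rest, 2.00-fold above E13.5 (1.87 to 2.15) and 3.56-fold above E16.5 proximal (3.40 to 3.72). At E16.5 the distal level was 1.93-fold the proximal one (1.84 to 2.03).

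At E14.5, Wnt11 was highest in dermal fibroblast-like cells and clusters near the same level. A dermal fibroblast-like cluster led by Rspo1 and Calb1 held 134 CPM (126 to 143), an unnamed cluster led by Nrgn, Sp5 and Irx1 held 135 CPM (126 to 145), and a smaller one led by Calb2 and Pax1 held 127 CPM (109 to 147), and these 3 intervals met. Fibroblast-like cells of that library held 67 CPM, and chondrocyte-like and tenocyte-like cells 10 and 11 CPM. At earlier stages the highest clusters were led by Irx5 and Pax1 at E13.5 (76.8 CPM) and by Prox1, Irx5 and Kera at E12.5 (70.9 CPM). At E16.5 distal a dermal fibroblast-like cluster led by Rspo1 again held the highest level, 47.8 CPM (43.6 to 52.4).

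Wnt4, which signals in joints, kidney and skin, was higher at each later stage of the sorted libraries. It was 5.43 CPM at E11.5, 13 CPM at E12.5, 25 CPM at E13.5, 35.3 CPM at E14.5, 48.0 CPM at E16.5 proximal and 38.3 CPM at E16.5 distal, with 4.13 and 4.64 CPM in whole limb (4.39 ± 0.36, SD, n = 2). In the E16.5 proximal library the level rested on keratin-expressing cells, since 68.8% of its Wnt4 UMIs came from non-mesenchymal clusters. Over mesenchymal cells alone, Wnt4 was 32.8 CPM at E14.5 and, at E16.5, 17.7 CPM proximally and 35.8 CPM distally. The step from E14.5 to E16.5 proximal was thus 1.36-fold upward over all cells and 1.85-fold downward over mesenchymal cells. It also goes from undivided forelimb to the elbow segment, and the distal mesenchymal level was not below that at E14.5.

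In the keratin-expressing cells, Wnt4 was present in basal and in suprabasal clusters. At E16.5 proximal it was 322 CPM (309 to 334) in the cluster led by Krt14, Krt5 and Krt15, keratins of the basal epidermis, 178 CPM (172 to 183) in the cluster led by Krt1 and Krt10, keratins of suprabasal epidermis, and 229 CPM (214 to 243) in the cluster led by Lor and other cornification genes. The Krt14-led cluster stayed unnamed because all 5 perineurial markers were raised in it too, so that its best marker class went against its leading genes. Hic1 was at 2.97 CPM in that cluster and at 1.62 and 2.81 CPM in the 2 others, against 19.7 CPM in fibroblast-like cells of the same library. In the study's methods, Krt1+ and Krt14+ epithelial cells of the E16.5 libraries were treated as contaminants and removed from the merged data, whereas the deposited matrices used here hold them.

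Wnt4 in the mesenchyme was highest in a dermal fibroblast-like cluster of E16.5 distal led by 9330159F19Rik and Pla2g4c, at 217 CPM (206 to 227), with 27.6% of the Wnt4 UMIs of that library in 5.78% of its cells. A cluster led by Tbx3 in the same library held 152 CPM (140 to 164). Dermal fibroblast-like cells held 97.1 CPM at E14.5 and 45 CPM at E16.5 proximal. The highest cluster at E12.5 (32.1 CPM, 26.5 to 38.5) passed the joint marker rule but was led by the cartilage genes Lect1, Matn4 and Col9a3, and Gdf5, a marker of the joint interzone, was higher in another cluster (192 CPM against 62.5 CPM). Joint-like cells led by Gdf5 held 88.3 CPM (78.5 to 98.9) at E13.5 and 65.0 CPM (55 to 76.3) at E16.5 distal. Chondrocyte-like cells held 21.9 CPM at E13.5 and 68 CPM at E14.5, while tenocyte-like cells held 13 CPM at E14.5 and 6.1 and 5.7 CPM at E16.5.

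Wnt9a, a joint-associated ligand, was low in the whole limb and higher in every sorted library. It was 10.5 CPM at E11.5, 15.1 CPM at E12.5, 11.5 CPM at E13.5, 9.13 CPM at E14.5, 4.87 CPM at E16.5 proximal and 7.18 CPM at E16.5 distal, against 1.66 and 1.13 CPM in whole limb (1.39 ± 0.37, SD, n = 2). The E12.5 level stood apart, and the E11.5 interval met those at E13.5 and at E14.5, which did not meet each other. Wnt9a was 2.15-fold lower at E16.5 proximal than at E11.5 (1.90 to 2.44), or 1.85-fold lower over mesenchymal cells (1.63 to 2.09).

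No joint-like cluster held the highest Wnt9a level of its library. At E13.5, joint-like cells held 8 UMIs of Wnt9a in 568 cells, 2.38 CPM (1.03 to 4.69). This was the lowest of the 16 clusters of that library, and chondrocyte-like cells held 3.58 CPM. At E16.5 proximal the highest mesenchymal cluster was the Pi16+ fibroblast-like one (9.79 CPM). It was not the unnamed cluster of 351 cells led by Tnn, Gdf5 and Prg4. The highest cluster at E13.5 was led by Crtac1 and Rgs5 (35.9 CPM, 28.2 to 45.1), and a cluster led by Aldh1a3 and Crtac1 was highest at E11.5 (23.8 CPM, 17.0 to 32.2). At E12.5 a cluster led by Krt20 and Bace2 held 26.3 CPM (20.6 to 33.1). At E16.5 distal, a fibroblast-like cluster led by Anxa8 and holding Pi16 among its leading genes had 23.0 CPM (20.5 to 25.9), with 25.3% of the Wnt9a UMIs in 6.56% of the cells.

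Wnt16 was low in every library, at 3.62 CPM at E11.5, 3.57 CPM at E12.5, 5.35 CPM at E13.5, 3.81 CPM at E14.5, 3.35 CPM at E16.5 proximal and 5.32 CPM at E16.5 distal, and at 2.57 and 2.05 CPM in whole limb (2.31 ± 0.37, SD, n = 2). The intervals at E13.5 and E16.5 distal met, as did those at E14.5, E11.5, E12.5 and E16.5 proximal in order. Over mesenchymal cells the E16.5 levels were 2.20 CPM proximally and 4.93 CPM distally.

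A distal mesenchyme-like cluster of E16.5 distal led by Cdh9, Lhx9 and Sim1 held Wnt16 at 66.4 CPM (58.1 to 75.5), with 27.2% of the Wnt16 UMIs in 2.66% of the cells. Wnt16 was itself among the leading genes of that cluster, although it had not been used to build it. At E16.5 proximal, the Krt14-led cluster held 41.1 CPM (36.8 to 45.7), with 42.1% of the UMIs, an osteogenic and perichondrial-like cluster led by Spp1 and Alpl held 24.2 CPM (19.3 to 30.0), and the Pi16+ fibroblast-like cluster held 15 CPM. The suprabasal Krt1-led cluster held 0.77 CPM (0.45 to 1.21). Joint-like cells held 10 Wnt16 UMIs at E13.5 (2.97 CPM, 1.43 to 5.47).

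Wnt6 was all but undetected in the early sorted libraries, with 3 UMIs at E11.5 (0.095 CPM), 33 UMIs at E12.5 (0.75 CPM) and 18 UMIs at E13.5 (0.40 CPM). It was 4.07 CPM at E14.5, 10.9 CPM at E16.5 proximal and 7.41 CPM at E16.5 distal, and 1.5 and 1.79 CPM in whole limb (1.65 ± 0.21, SD, n = 2). In whole limb, 89.6% and 91.3% of the Wnt6 UMIs lay in non-mesenchymal clusters, and over mesenchymal cells its level was 0.17 CPM in both libraries. Such clusters held 51.2% of the UMIs at E14.5 and, at E16.5, 62.9% proximally and 11.9% distally.

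Epithelial-like cells of the whole limb, 38 and 21 cells led by Wnt6, Fgf8 and Krt14 or Krt5, held 209 CPM (161 to 268) and 477 CPM (378 to 592). Fgf8 is the ligand of the apical ectodermal ridge. At E14.5 the 31 cells led by Krt15 and Krt14 held 376 CPM (332 to 424), and at E16.5 proximal the Krt14-led cluster held 198 CPM (188 to 208) with 62.2% of the UMIs. Wnt6 was near 0 in the suprabasal clusters of the proximal library, with 0.68 CPM (0.39 to 1.10) in the Krt1-led cluster and 0 UMIs in the Lor-led cluster (exact upper bound 0.86 CPM), although both held Wnt4. The distal epithelial-like cluster, led by Krt1 and with Krt5 and Krt14 among its leading genes, held 57.2 CPM (48.1 to 67.5).

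Wnt6 was also found outside keratin-expressing clusters at E16.5, where most of the UMIs of the distal library lay. It was 32.2 CPM (28.5 to 36.3) in a proximal cluster led by Nrgn, Sp5 and Col7a1. Ska1 and Hist1h1b, genes of dividing cells, were also among its 10 leading genes, and Krt14 and Krt5 were not. A distal mitotic-like cluster held 35.0 CPM (31.1 to 39.2), and 3 dermal fibroblast-like clusters of both libraries held 16.4 to 21.2 CPM. Whether RNA of keratin-expressing cells added to these levels was not tested. The distal pericyte-like cluster held 18.4 CPM, and at a finer resolution an unnamed cluster of 187 cells led by Lypd2 held 23.2 CPM. The study counts Wnt6 among the markers of a perineurial signature that it detects at E16.5. In the main clustering no E16.5 cluster took a perineurial name. Whether Wnt6 outside keratin-expressing clusters came from perineurial cells was not tested. Over mesenchymal cells alone, Wnt6 was 2.01 CPM at E14.5 and, at E16.5, 4.80 CPM proximally and 6.63 CPM distally.

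Wnt2 was near the limit of detection at E11.5 and far higher at E16.5. It was 0.29 CPM at E11.5 (9 UMIs), 0.66 CPM at E12.5 (29 UMIs), 2.09 CPM at E13.5, 10.2 CPM at E14.5, 28.1 CPM at E16.5 proximal and 13.5 CPM at E16.5 distal, against 0.585 CPM in each whole limb library (30 UMIs each). From E11.5 to E16.5 proximal the ratio was 98.2 (51.7 to 215), and 114 over mesenchymal cells (60.2 to 250), the wide intervals following from the 9 UMIs at E11.5. The steps from E13.5 to E14.5 (4.88-fold, 3.97 to 6.08) and from E14.5 to E16.5 proximal (2.74-fold, 2.59 to 2.91) were each resolved by their counts.

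The Wnt2 UMIs came mainly from few cells. At E16.5 proximal, a fibroblast-like cluster of 489 cells led by Ly6a and Pi16 held 298 CPM (288 to 308), which was 54.9% of the UMIs of the library in 4.40% of its cells. The level of the fibroblast-like class depended on where it was bounded, at 141 CPM over 1960 cells at resolution 0.5, 186 CPM over 1221 cells at resolution 2, 122 CPM over 2334 cells with joint clustering and 126 CPM over 2048 cells named by their own markers. With each cell thinned to 3000 UMIs, 56.4% of these cells held a Wnt2 UMI (51.9 to 60.9, Clopper-Pearson), against 0 of 714 chondrocyte-like cells, whose median depth was 19524 UMIs before thinning and 23007 in the fibroblast-like cells. An unnamed cluster led by Sfrp4, Prss12 and Dkk2 held a further 25.6% of the UMIs at 65.1 CPM (62.0 to 68.3).

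Fibroblast-like clusters also held the highest Wnt2 levels of the other late libraries. At E14.5 a fibroblast-like cluster led by Prss12, Sfrp4 and Mfap5 held 81.8 CPM (73.9 to 90.2). At E16.5 distal, fibroblast-like clusters with Dpp4 or Pi16 among their leading genes held 66.6 CPM (61.0 to 72.7) and 55.7 CPM (51.7 to 60). At E13.5, 1 cluster of 16 stood out, at 24.5 CPM against a median of 1.06 CPM. Epithelial-like cells held 4.3 CPM of Wnt2 at E14.5 and, at E16.5, 3.0 CPM proximally and 0.41 CPM distally.

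**Figure D3:**
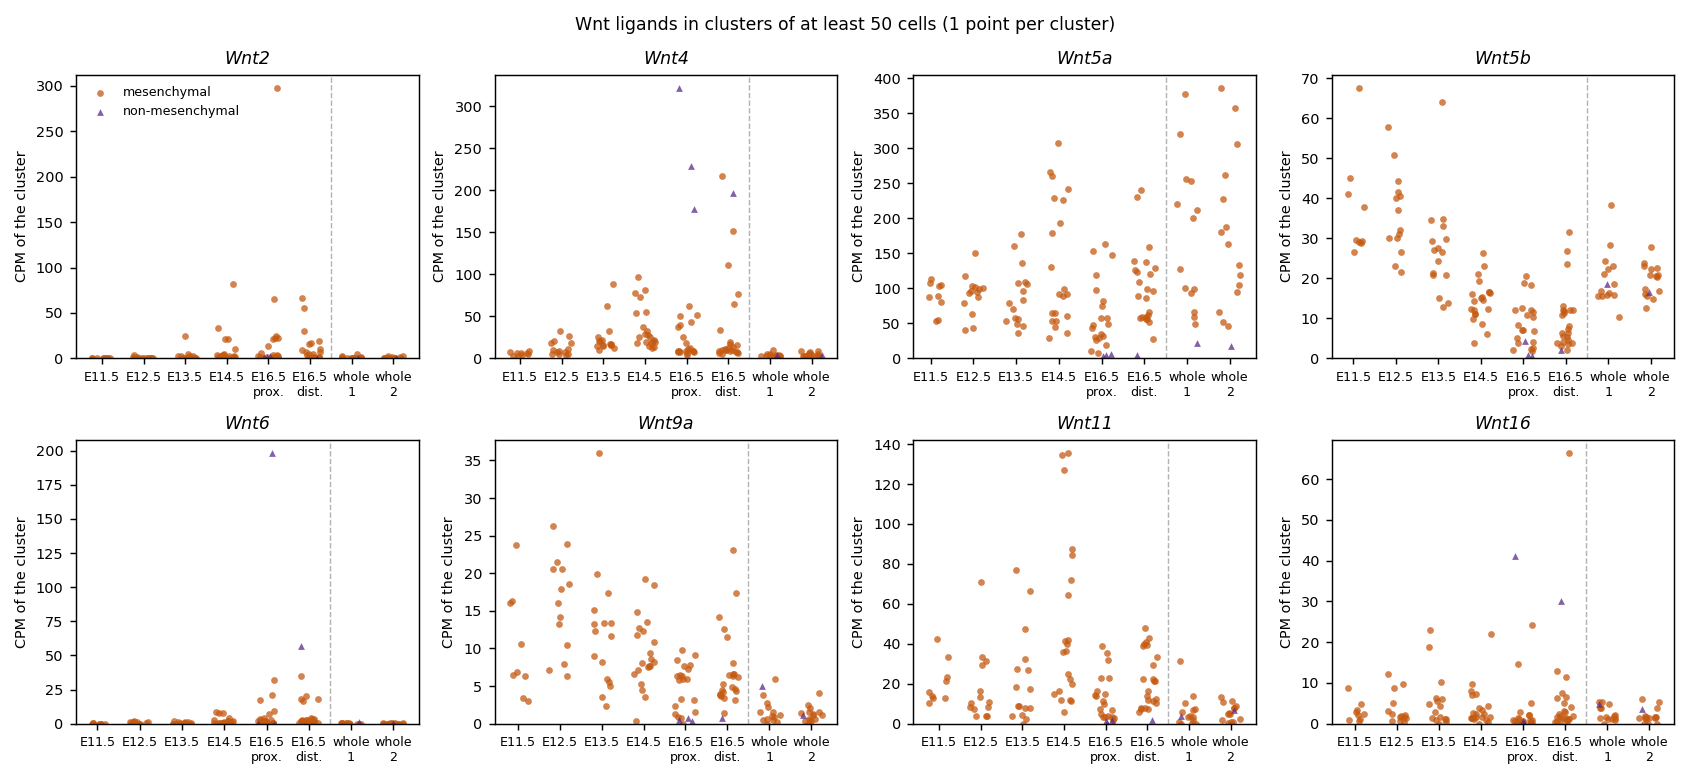
Level of each ligand in CPM (y axis, linear, own range in each panel) in every cluster of at least 50 cells, by library (x axis), with mesenchymal clusters as circles and non-mesenchymal clusters as triangles. Single clusters stand far above the rest for Wnt2 (298 CPM) and Wnt6 (198 CPM), and the highest for Wnt16 (66.4 CPM) is followed by one at 41.1 CPM, whereas Wnt5b and Wnt9a spread more evenly.

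**Figure D4:**
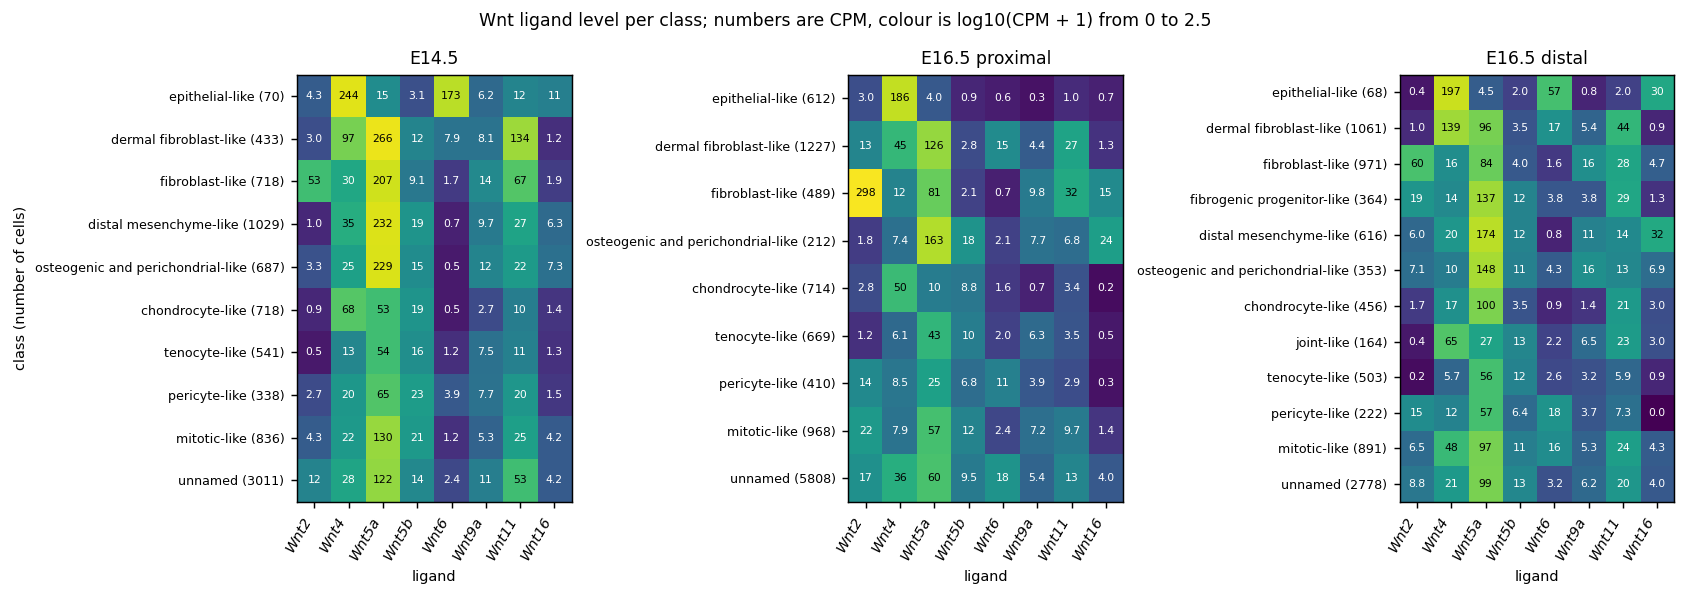
Level of each ligand per class in the E14.5 library and both E16.5 libraries, with the CPM printed in each cell, the number of cells of the class beside its name and colour on a log10(CPM + 1) scale. Wnt2 is highest in fibroblast-like cells of all 3 libraries and Wnt4 in epithelial-like cells, and the Krt14-led cluster of E16.5 proximal is counted in the unnamed class.

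Changes of at least 2-fold between stages were counted beside the share of all genes that passed. The steps to E16.5 proximal also go from undivided forelimb to the elbow segment, so stage and segment cannot be told apart in them. The reagent kit changes as well from E11.5 to E16.5 proximal and from E13.5 to E14.5. Of the 7 ligands at 5 CPM or more in at least 1 library of the pair, 3 were higher (Wnt2, Wnt4 and Wnt6) and 3 were lower (Wnt5b, Wnt9a and Wnt11) by at least 2-fold at E16.5 proximal than at E11.5, where 44.7% of 10903 genes passed (14.6% higher and 30.2% lower). Over mesenchymal cells this left Wnt2 and Wnt4 higher and Wnt5b lower, with 43.3% of genes past 2-fold (13.7% higher and 29.6% lower). Wnt6 was 50.4-fold higher there (17.2 to 245) but was not counted, since its 4.80 CPM missed the 5 CPM minimum. Among the 5 ligands that met the minimum, Wnt4 passed from E11.5 to E12.5 (2.40-fold, 2.02 to 2.86), against 4.32% of genes (2.99% higher and 1.33% lower), and none of the 6 that met it passed from E12.5 to E13.5, against 4.08% (2.19% higher and 1.89% lower). Under the minimum, Wnt6 was 0.095 CPM at E11.5 and 0.75 CPM at E12.5, and Wnt2 was 0.29 and 0.66 CPM with intervals that met. Wnt2, also under the minimum, was 3.19-fold higher at E13.5 than at E12.5 (2.09 to 5.02). Wnt2 and Wnt11 were higher at E14.5 than at E13.5, against 11.6% of genes (5.1% higher and 6.5% lower), and over mesenchymal cells the same ligands passed (5.05% of genes higher and 6.58% lower). Wnt6, under the minimum, was 10.3-fold higher in that step (6.43 to 17.4) and 5.07-fold higher over mesenchymal cells (3.14 to 8.68). From E14.5 to the proximal E16.5 library, Wnt2 and Wnt6 were higher and Wnt5a, Wnt5b and Wnt11 lower, against 15.6% of genes (7.7% higher and 7.91% lower). Over mesenchymal cells Wnt2 was higher and Wnt5a and Wnt11 were lower in that step, against 12.6% (5.82% higher and 6.83% lower), and Wnt6, under the minimum, was 2.39-fold higher (2.08 to 2.75).

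Between the segments of the E16.5 limb, 1 ligand passed 2-fold over all cells, against 10.4% of 10352 genes (5.66% higher and 4.78% lower). Wnt2 was 2.08-fold lower distally (1.98 to 2.19), and Wnt11, Wnt5a, Wnt16, Wnt9a and Wnt5b were 1.93-, 1.74-, 1.59-, 1.48- and 1.22-fold higher distally, whereas Wnt6 and Wnt4 were 1.48- and 1.25-fold lower. Over mesenchymal cells, Wnt2 was 2.39-fold lower (2.27 to 2.51) and Wnt4 turned to 2.02-fold higher distally (1.94 to 2.11), as Wnt6 turned to 1.38-fold higher (1.26 to 1.51), against 7.06% of genes (4.5% higher and 2.56% lower). Wnt16, just under the minimum, was 2.25-fold higher distally (2.00 to 2.53). Without replicate libraries these differences are between 2 libraries, not between segments in general. The 2 matrices were also made with different Cell Ranger versions, 6.0.1 distally and 3.0.2 proximally, so version and segment cannot be told apart.

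At E11.5, the sorted cells could be set against replicated whole limb, over mesenchymal cells, with edgeR's quasi-likelihood test and Benjamini-Hochberg adjustment over 15107 genes. The fit had 1 residual degree of freedom, and the lone sorted library was assumed to vary like the whole limb libraries. The p-values measure only the spread between these samples, which may be technical. The whole limb libraries also hold tdTomato+ cells. Per the study, tdTomato+ cells at E11.5 lay mostly in the proximal limb. Lineage and position along the limb can therefore not be told apart in this comparison, for any gene. Of the 7 ligands tested, 6 passed an adjusted p under 0.05, 4 higher and 2 lower in sorted cells. The background was high, with 52.2% of all genes called, 26.3% higher and 26% lower. In such bulk sums, fewer cells of a type and less RNA per cell cannot be told apart.

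Wnt9a was the ligand with the largest difference, at 10.5 CPM in sorted cells against 1.39 and 1.10 CPM in the mesenchyme of whole 1 and whole 2 (log2 fold change 2.89, adjusted p = 9.4e-49). Wnt11 was 24.4 CPM against 5.56 and 5.42 CPM (log2 1.97, adjusted p = 7.6e-42). Wnt5b was 34.3 CPM against 19.9 and 19.2 CPM (log2 0.63, adjusted p = 4.9e-06). In each of these, the sorted library lay above both whole limb libraries.

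Wnt5a was lower in sorted cells, at 90.2 CPM against 183 and 187 CPM (log2 -1.22, adjusted p = 4.3e-30). Genes of the distal limb were lower too, with Hoxd13 at 7.56 CPM against 133 and 114 CPM and Hoxa13 at 0.48 CPM against 15.0 and 14.7 CPM. With the clusters named distal mesenchyme left out of the sorted and whole limb libraries, Wnt5a had a log2 fold change of -0.92. This alternative was chosen after seeing the data. It left out only 463 and 1264 cells of whole 1 and whole 2 and 40 sorted cells. Unnamed clusters high in Hoxa13 and Hoxd13 stayed in, such as the Tfap2b- and Evx2-led cluster of whole 1. The part of distal cells in the result was therefore not tested.

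Wnt16 (3.62 CPM against 2.42 and 1.95 CPM, log2 0.55, adjusted p = 0.031) and Wnt2 (9 UMIs against 30 and 29 UMIs, log2 -1.30, adjusted p = 0.040) passed narrowly. Both lost the call with DESeq2, with limma-voom, without the filter on low counts, over all filtered cells and with distal mesenchyme clusters left out, and Wnt16 also when cells were thinned. Wnt4 did not pass, at 5.43 CPM against 3.61 and 4.15 CPM (log2 0.30, adjusted p = 0.16). Wnt6 had too few UMIs to be tested, at 3 UMIs against 8 and 8.

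Receptors and targets of the pathway gave the setting in which these ligands were measured. The limit on lineage and position given above holds for them too. Of 9 genes induced by beta-catenin signalling, 6 were lower in sorted cells, 2 did not pass and 1 was not tested, and none was higher, where 26% of all genes were lower and 26.3% higher. Axin2, the feedback scaffold, was 12.1 CPM against 45.9 and 42.3 CPM (log2 -2.04, adjusted p = 1.8e-48), and Lef1, a nuclear partner of beta-catenin, was 28.3 CPM against 93.8 and 93.1 CPM (log2 -1.90, adjusted p = 5.5e-68). Notum, a secreted Wnt deacylase, had the largest change, at 0.73 CPM against 4.23 and 4.53 CPM (log2 -2.76, adjusted p = 6.7e-22).

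Of 15 receptors and co-receptors, 3 were higher, 2 were lower and 10 did not pass, where 52.2% of all genes were called. Fzd8 was 14.2 CPM against 4.40 and 4.66 CPM (log2 1.47, adjusted p = 3.0e-20), and Fzd10 was 3.02 CPM against 23.7 and 20.3 CPM (log2 -3.04, adjusted p = 2.1e-61). Fzd6 and Ror1 were the other 2 that were higher, and Ryk the other that was lower. Fzd6 was called in 6 of 9 settings (adjusted p up to 0.16), Ror1 in 5 of 9 (up to 0.16) and Porcn, below, in 7 of 9 (up to 0.11). Ror2, the receptor best known for Wnt5a, did not pass (log2 0.13, adjusted p = 0.32). Of the secretion genes, Porcn, which adds the lipid, was higher (log2 0.70, adjusted p = 9.8e-05) and Wls, which carries Wnts to the surface, was lower (log2 -0.58, adjusted p = 2.1e-08).

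**Figure D5:**
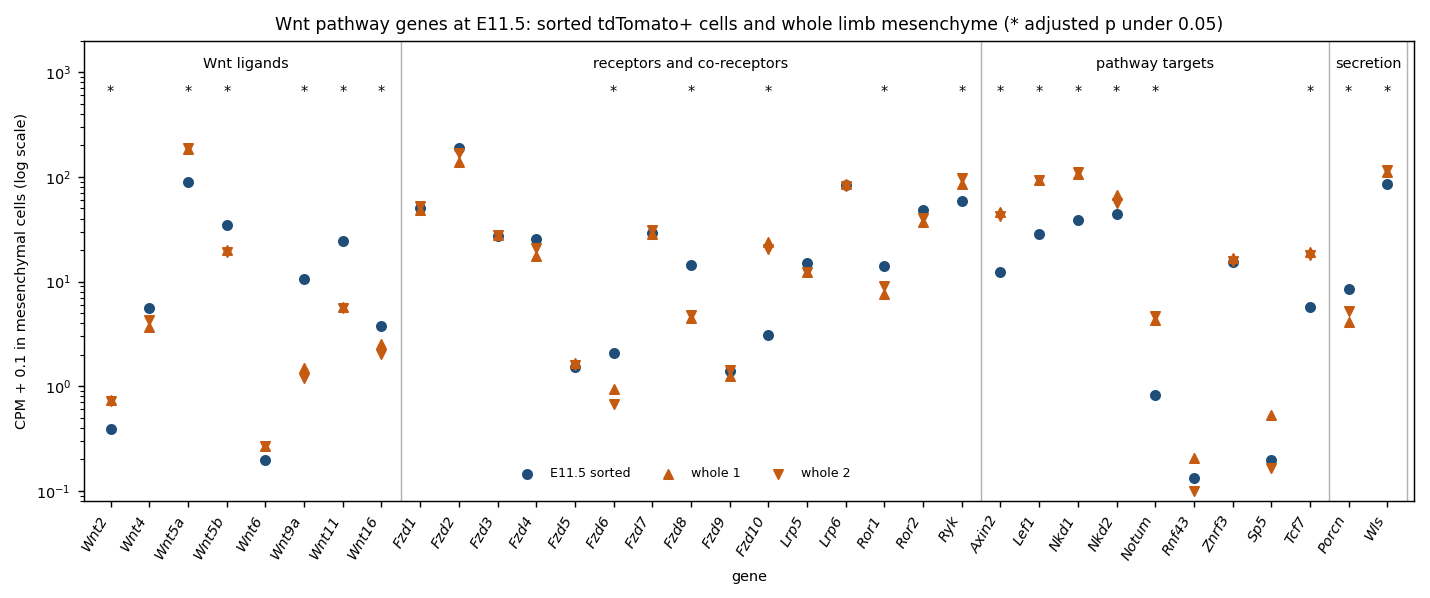
CPM + 0.1 (y axis, log scale) of the 8 ligands, 15 receptors, 9 pathway targets and 2 secretion genes in mesenchymal cells of sorted E11.5 (circles), whole 1 and whole 2 (triangles), with a star where the adjusted p was under 0.05. The whole limb points lie close together for most genes, and Wnt9a, Wnt11 and Fzd8 lie above them in sorted cells while Wnt5a, Axin2, Lef1 and Fzd10 lie below.

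Patterns over the mesenchymal clusters of the sorted libraries described each ligand further. Among 9951 genes and 103 clusters of at least 50 cells, the gene whose log2(CPM + 10) was most alike to that of Wnt2 was Sfrp4, a secreted Frizzled-related protein (Pearson's r 0.824, Spearman's rho 0.638), followed by Adgrd1 and Lrrn4cl (r 0.803 and 0.801). For Wnt6 these were Col7a1, the anchoring fibril collagen of skin, Cbr3 and Zfp536 (0.855, 0.841 and 0.813), and for Wnt4 Erich2, 9330159F19Rik and Edaradd (0.691, 0.686 and 0.670). Spearman's rho was lower, at 0.657, 0.549 and 0.398 for Wnt6 and 0.293, 0.360 and 0.322 for Wnt4. The median Wnt6 level over these clusters was 0.97 CPM, small beside the 10 CPM added before the logarithm. For Wnt5a they were Bend5, Chd3 and Erc2 (0.646, 0.622 and 0.620), and Erc2 was also the nearest protein-coding neighbour of Wnt5a, 26212 bp away.

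For Wnt11 the most alike genes were Emx2os, Unc5d and Axin2 (0.705, 0.686 and 0.684), and for Wnt9a Tmem119, Pnck and Bmp1 (0.70, 0.660 and 0.660). Wnt5b went with Homer3, Coprs and Polr2m (0.833, 0.830 and 0.823), and Wnt16 with Efnb2, Palmd and Kcne1l at lower values (0.566, 0.548 and 0.544). For Wnt16, rho was 0.623, 0.417 and 0.386 in the same order. Between members, the highest Pearson correlation was that of Wnt4 with Wnt6 (r 0.518, rho 0.331), whereas the highest rank correlation was that of Wnt2 with Wnt6 (r 0.096, rho 0.455). The clusters share libraries and depth, and these values are descriptions over clusters.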

How the data were processed

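Single-cell suspensions of mouse forelimb were measured in 8 libraries, grouped by GEO's labels. Raw UMI counts for each gene and barcode were deposited, made by the authors with the Cell Ranger count pipeline on a modified mm10 genome. Per the file headers, version 6.0.1 was used for the distal E16.5 library and 3.0.2 for the other 5 sorted ones, and the whole limb headers name no version. Depth after filtering was 31500092 to 234893903 UMIs per library. At most 48 barcodes (1.04% of the smaller library) were shared by any pair of libraries.

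Each library was clustered separately (2000 variable genes, 50 components, 25 neighbours, leidenalg 0.10.2 at resolution 1) without Wnt, Fzd, Sfrp, Rspo and Dkk genes. A cluster took a class name where at least 3 of its markers were raised and its 10 leading genes held no more listed markers of another class. Leading genes outside the lists did not count, so some clusters kept names that their leading genes do not bear out. Among these were the E12.5 joint cluster (led by Lect1 and Matn4) and the 8-cell endothelial cluster of whole 2 (Pf4 and Ppbp). Others were the 24-cell osteogenic and perichondrial cluster of the distal E16.5 library (Hes5 and Sox2) and the 79-cell distal mesenchyme cluster of whole 2 (Fhl3 and Slc39a1). The 251-cell distal mesenchyme cluster of whole 2 held Hoxa13 and Hoxd13 at a summed 44.3 CPM, below the 66.9 CPM of a posterior mesenchyme cluster. Scrublet, run in scanpy 1.11.5, marked 0 to 5 cells per library, which was taken as a failed call. Doublets were therefore not removed, and the 5% of cells with the highest scores were left out as an alternative instead. Levels are CPM with exact Poisson 95% intervals, and shares of cells have Clopper-Pearson intervals. A 2-fold rule was applied to genes at 5 CPM or more in either library. The E11.5 comparison summed UMI counts per library and used edgeR 4.0.16 (TMM, filterByExpr), with DESeq2 1.42.0 and limma 3.58.1 as alternatives. The counts of whole 1 and whole 2 differed beyond sampling noise (chi-square 229100 on 15390 degrees of freedom), so they were kept as 2 samples. On simulated data for this comparison, edgeR recovered 200 of 200 genes changed 4-fold among 14691 tested, with 13 false calls. All simulated libraries were drawn from whole limb proportions with a fixed dispersion of 0.01. The simulated sorted library thus varied like the others by construction, so that assumption of the real comparison was not tested.

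All 8 ligands were named. Members of the receptor, target and secretion lists were named by the largest change in each direction. For likeness, the 3 genes with the highest Pearson correlation over clusters were named among genes at 20 CPM or more in at least 1 cluster. Hoxa13, Hoxd13, Lef1, Axin2, Ror2, Fzd6, Ror1 and Ryk were named besides, with their values known. The members and lists were chosen with earlier results of these data known.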

Additional observations from a re-analysis of the deposited data

How the results depend on the processing

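No paired analysis was possible because the sorted E11.5 group has 1 library, whose labels carry no replicate number, so fewer than 2 pairs could be formed. Of 64 levels (8 ligands in 8 libraries), 28 stayed inside their counting interval with each cell thinned to 3000 UMIs, 47 without non-mesenchymal clusters, 60 with a mitochondrial limit of 5%, and 64 with all barcodes or without the top 5% of doublet scores. Between the E16.5 segments, 2 ligands rather than 1 passed 2-fold when thinned (Wnt2 and Wnt16) and when non-mesenchymal clusters were left out (Wnt2 and Wnt4, with Wnt16 2.25-fold higher distally but just under the 5 CPM minimum). The leading class within the highest library was followed among named classes only. It was dermal fibroblast-like for Wnt6 (15.2 CPM) and tenocyte-like for Wnt16 (5.53 CPM), not the cells described above for these ligands. The leading class was the same for 5 of 8 ligands at resolution 0.5 and with joint clustering (Wnt5b, Wnt9a and Wnt16 changed in both). With cells named by at least 3 markers it was also the same for 5 of 8. Wnt5b, Wnt6 and Wnt9a changed there, Wnt6 to epithelial-like. With cells thinned, Wnt5b and Wnt16 changed. The E11.5 test called 4673 genes with DESeq2 and 4692 without the filter on low counts, against 7892, and the share called higher was 38.3% with DESeq2 against 50.3%. The cause was not tested. Wnt5a, Wnt5b, Wnt9a and Wnt11 were called under each alternative run, and 4 to 6 ligands were called. Wnt2 was called in 4 of 9 settings (adjusted p 0.017 to 0.35) and Wnt16 in 3 of 9 (0.027 to 0.42), and Wnt6 was called lower with all filtered cells. With 1 whole limb library left out in turn, no test could be had, and the log2 difference of the 7 ligands kept its direction. Leaving out cells marked by scrublet was not run, since almost none were marked. Over mesenchymal cells alone the direction turned for Wnt4 from E14.5 to E16.5 proximal (1.36-fold higher to 1.85-fold lower) and for Wnt4 and Wnt6 between the E16.5 segments (1.25- and 1.48-fold lower distally to 2.02- and 1.38-fold higher).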

Other observations

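Other Wnt ligands, which are not among the 8, were measured in the same keratin-expressing cells of the E16.5 proximal library. The Krt14-led cluster held Wnt10a at 61.7 CPM (90.4% of the Wnt10a UMIs of the library), Wnt3 at 57.9 CPM (81.4%), Wnt10b at 13.1 CPM (44.0%) and Wnt7b at 31.4 CPM (25%), while the Krt1-led cluster held 53.9% of the Wnt7b UMIs at 23.3 CPM and the Lor-led cluster 18.7% at 44.5 CPM. Wnt10a is the nearest protein-coding neighbour of Wnt6. At E11.5, Wnt8a had 33 UMIs in the sorted library and 0 and 1 UMIs in the whole limb libraries, whereas Wnt3, a ligand of the limb ectoderm, had 0 UMIs in the sorted library and 12 in each whole limb library after non-mesenchymal clusters were left out. Wnt1 had 87 UMIs at E13.5 and 6 at E14.5.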
